A study of Mus musculus with 18 samples.

Results

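The genes described here are 9 erythroid genes of the leukemic mouse spleen. They are the adult beta globins Hbb-bs and Hbb-bt, the alpha globins Hba-a1 and Hba-a2, the heme enzyme Alas2, the membrane anion exchanger Slc4a1, the erythropoietin receptor Epor, and the transcription factors Gata1 and Klf1. They were chosen by gene symbol, and all 9 were found in both expression tables, out of 19509 genes listed in either table. The study profiled by RNA-seq the leukemic spleens of C57BL/6 mice that had received T-cell acute lymphoblastic leukemia, here T-ALL, that carried a conditional knockout allele of Acly, the enzyme that makes acetyl-CoA from citrate in the cytosol. It has 18 libraries in 5 groups, and the question was how the leukemia differs with and without Acly.

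Every recipient mouse was sublethally irradiated and injected intravenously with T-ALL carrying the conditional allele, so knockout (KO) and wild-type (WT) labels tell induced deletion from none. In the acute experiment, mice with overt leukemia were given tamoxifen at 3 mg per mouse or corn oil alone, and spleens were taken 48 h later, giving 4 KO acute and 4 WT acute libraries. In the survival experiment, the same treatments were given 48 h after transplantation and spleens were taken at the humane endpoint. These are labelled KO survival first wave (3 libraries), KO survival second wave (3 libraries) and WT survival (4 libraries), and the labels do not say what sets the waves apart. The KO libraries are labelled Acly deleted and the WT libraries control, and they are read here as the tamoxifen and the corn oil arms, which no label states library by library. With tamoxifen as the inducing agent, deletion and tamoxifen exposure cannot be told apart. Which cells express the recombinase, and the ages of the mice, are details not given in the sources used here, as is sex. Separate mice are not stated for the replicates, and the tests therefore describe variation among libraries, which may be technical.

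Red cells are made in bone marrow and, in mice, also in the red pulp of the spleen, where production can expand under stress such as irradiation or anemia. Erythropoietin, sensed through Epor, keeps early erythroid precursors alive; Gata1 and Klf1 then switch on globin, heme and membrane genes. Late precursors and reticulocytes lose the nucleus but still hold much globin mRNA. The spleens were made into single-cell suspensions and put through red blood cell lysis before RNA extraction, so these values describe the erythroid RNA left after that step. In bulk RNA, fewer erythroid cells and less RNA per erythroid cell cannot be told apart, and the tables do not separate recipient cells from leukemic cells.

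All values are normalized counts as deposited, that is, estimated read counts divided by a size factor per library, and each experiment was normalized on its own. The libraries held about 6.1 to 12.7 M estimated reads each. Acly itself was 619.6 to 803.8 in KO acute and 1128.8 to 1421.6 in WT acute libraries, and 656.0 to 799.6 in first-wave KO and 505.2 to 655.2 in second-wave KO against 1485.7 to 1853.8 in WT survival libraries, so no KO library overlapped its WT group. KO acute replicates 1 and 2 stood apart in mitochondrially encoded RNA, at 4.80% and 5.27% of the library, against 2.35% and 2.70% in KO acute replicates 3 and 4 and 3.50% to 3.69% in WT acute libraries.

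The globin pairs are near copies of each other, which limits how well reads can be assigned to one gene. Hbb-bs (chr7:103826534-103828096, minus strand) and Hbb-bt (chr7:103812524-103813996, minus strand) lie in the beta globin cluster, and Hba-a1 (chr11:32283511-32284465, plus strand) and Hba-a2 (chr11:32296489-32297298, plus strand) in the alpha cluster, all in build GRCm38. Of the 31-base words in the longest coding transcript, 33.1% for Hbb-bs, 40.6% for Hbb-bt, 28.6% for Hba-a1 and 9.0% for Hba-a2 occurred in no other gene. The share for Alas2 was 84.4%, the rest being shared with overlapping transcripts of Apex2 and Mir3620, while every word of Slc4a1, Epor, Gata1 and Klf1 was found in that gene alone. The level of a single globin copy is therefore uncertain, while the sum over a pair is less so.

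The upstream sequences of the genes are shown because the 9 genes varied together across libraries and Gata1 and Klf1, both among the 9, bind motifs that can be searched for. RefSeq sequence (GRCm38.p6) was present for 8 of the 9 genes, Slc4a1 having no entry. Each window is the 250 bases before the RefSeq start, which differs from the GENCODE start for most of these genes: 7 of the 8 windows overlapped the GENCODE gene, by 3 bases (Hba-a2) to all 250 (Gata1), with 42 for Alas2, 54 for Klf1, 73 for Hbb-bt, 161 for Hba-a1 and 168 for Hbb-bs. Shown are Hba-a2 and Epor whole and, for Klf1, the 196 bases before both starts. In the sequences, printed 5′ to 3′ on the strand of the gene, capitals mark GATA motifs (AGATAA or AGATAG, or the same with T in place of the opening A, on either strand) and the CACCC motif that Klf1 family proteins recognise (CACCC on either strand), and the 2 kinds of match did not overlap in any of the 8 windows.
Hba-a2, chr11:32296242-32296491, plus strand: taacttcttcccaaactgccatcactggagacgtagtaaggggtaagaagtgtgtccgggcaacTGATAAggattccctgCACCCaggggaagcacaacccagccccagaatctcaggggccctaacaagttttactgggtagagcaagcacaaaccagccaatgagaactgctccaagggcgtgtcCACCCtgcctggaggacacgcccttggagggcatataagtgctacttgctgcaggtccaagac
Epor, chr9:21963577-21963826, minus strand: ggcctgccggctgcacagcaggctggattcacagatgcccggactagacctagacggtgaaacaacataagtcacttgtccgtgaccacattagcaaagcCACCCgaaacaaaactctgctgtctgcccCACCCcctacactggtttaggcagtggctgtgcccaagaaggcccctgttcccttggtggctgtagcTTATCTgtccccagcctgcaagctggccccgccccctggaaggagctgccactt
Klf1, chr8:84901732-84901927, plus strand: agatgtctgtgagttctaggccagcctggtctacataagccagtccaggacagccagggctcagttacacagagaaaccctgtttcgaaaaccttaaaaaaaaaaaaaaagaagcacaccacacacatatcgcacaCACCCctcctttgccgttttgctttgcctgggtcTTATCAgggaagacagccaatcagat
A CACCC match lay in all 8 windows of 250 bases and a GATA match in 6, the 6 holding both. Among 32851 such windows of all genes, 52.0% held CACCC, 26.5% a GATA motif and 11.8% both, against 6 of 8 erythroid windows with both. Aligned without gaps, the printed Hba-a2 window was identical to that of Hba-a1 over 247 of 247 bases, and the windows of Hbb-bs and Hbb-bt matched at 51.0% of 249 bases. A single inserted or missing base shifts all later bases in such an alignment, so the 51.0% may understate how alike the beta windows are. A match to a motif is a description of the sequence and does not show binding.

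Levels per kilobase of transcript put the genes in a nearly fixed order. Hbb-bs was first and Hba-a2 second in every library of both experiments, and Hbb-bt was in place 3 in every acute library and in place 3 or 4 in the survival libraries. Hbb-bs averaged 3008.7 ± 2735.1 normalized counts per kilobase in KO acute libraries and 5480.7 ± 1960.6 in WT acute libraries (SD, n = 4 each). Epor, Gata1 and Klf1 took the last 3 places in every library, and Epor averaged 16.5 ± 14.1 per kilobase in KO acute libraries and 20.7 ± 11.1 in WT acute libraries. Within this order, neighbouring genes among the last 3 exchanged places from library to library.

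Shortly after Acly deletion, all 9 erythroid genes had a lower fitted level in KO than in WT spleens, but none passed the test and the groups overlapped for every one. The log2 differences (KO minus WT, on the log2(normalized count + 1) scale) ran from -1.40 to -0.43 with a median of -0.65, against a median of 0.03 over the 14184 genes tested, of which 47.6% were negative. All 9 genes passed the filter of a mean of at least 10. By limma with Benjamini-Hochberg adjustment over all genes tested, 0 of the 9 were called at 0.05, where 12.6% of all genes were called, and 8.07% were called lower. At an unadjusted p under 0.05 there were 2, Slc4a1 and Hbb-bs. Groups that did not overlap were seen for 0 of the 9, against 19% of all genes (11% with KO lower).

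**Figure D1:**
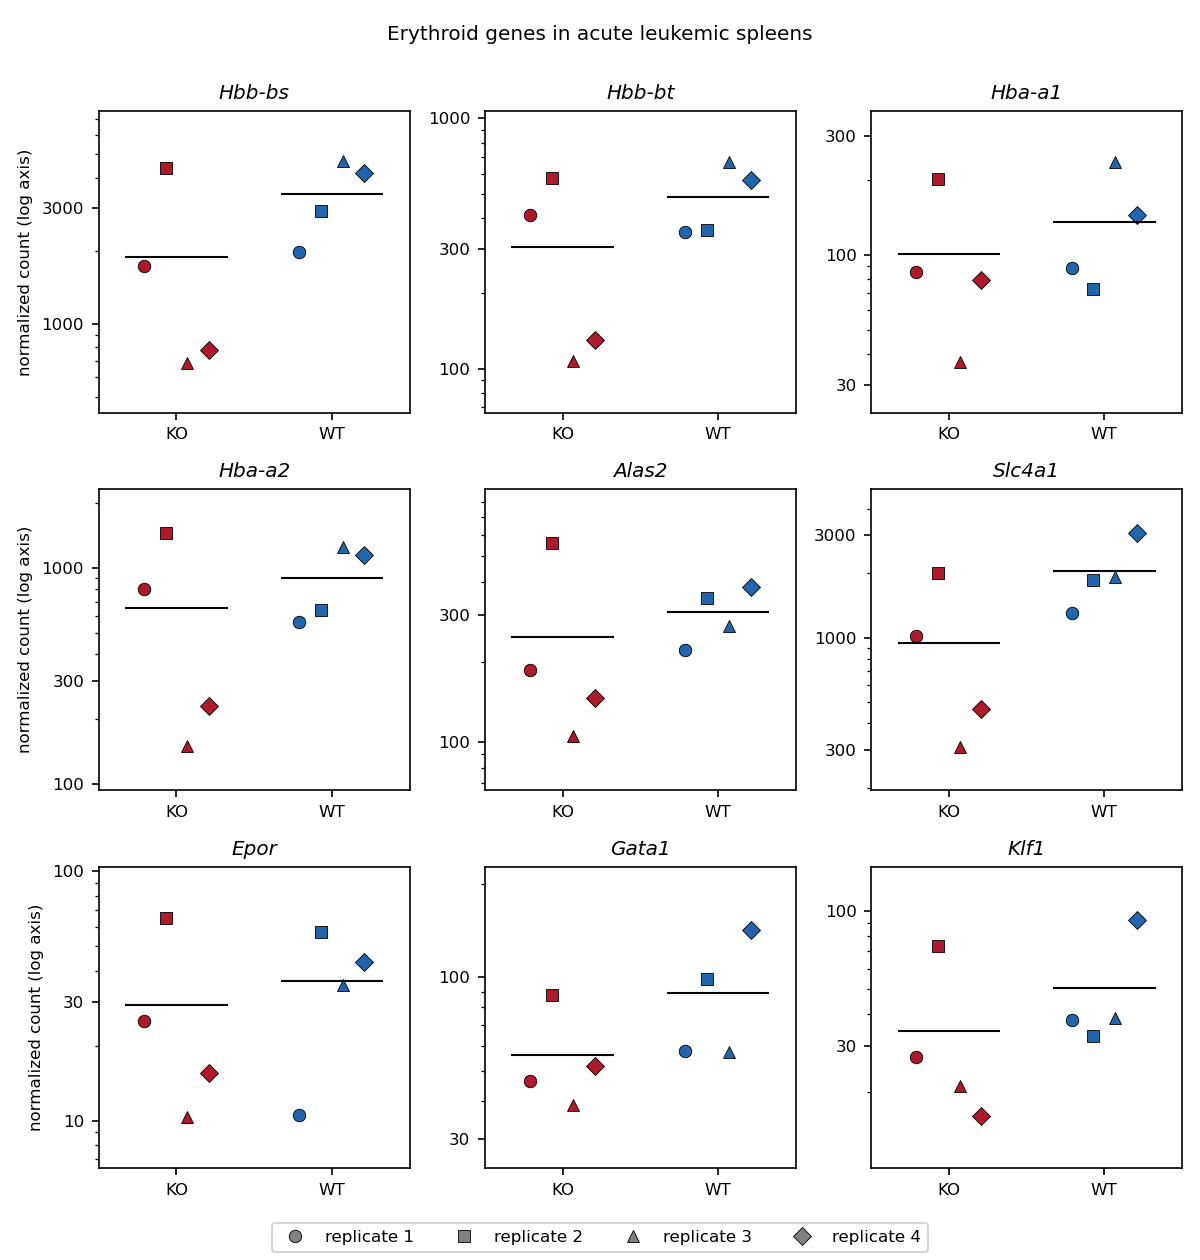
Normalized counts of the 9 erythroid genes in acute spleens (log axes), KO left of WT, 1 point per library with its replicate number as the shape; the horizontal line is the group mean. KO replicate 2 lies within or above the WT values for every gene, and KO replicate 3 lies below all WT values for every gene, and the groups overlap for every gene.

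Among the globins, Hbb-bs stood at 1724.3, 4368.1, 687.6 and 777.8 normalized counts in KO acute replicates 1 to 4, against 1978.9, 2911.5, 4702.6 and 4174.5 in WT acute replicates 1 to 4. KO replicates 1, 3 and 4 lay below all WT libraries, and KO replicate 2 lay among the WT libraries. The log2 difference was -1.20 ± 0.46 (SE; 95% interval -2.18 to -0.22, limma adjusted p = 0.1005). Hba-a2 was 798.3, 1451.1, 150.1 and 231.0 in KO acute libraries, against 565.4, 639.7, 1248.3 and 1146.5 in WT acute libraries. Here KO replicate 2 was above every WT library and KO replicates 3 and 4 were below every one, and the log2 difference was -0.92 ± 0.55 (limma adjusted p = 0.298). Hbb-bt was at -0.96 ± 0.45 (adjusted p = 0.1785) and Hba-a1 at -0.52 ± 0.46 (adjusted p = 0.4944). As a share of all normalized counts, the 4 globins made up 0.042%, 0.093%, 0.014% and 0.017% of KO acute replicates 1 to 4, and 0.039% to 0.089% of WT acute libraries. Globin mRNA was thus a small part of every library.

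Alas2, which makes the first intermediate of heme in erythroid cells, was 186.3, 558.6, 105.1 and 146.7 in KO acute libraries, against 222.5, 349.2, 271.9 and 383.8 in WT acute libraries. KO replicate 2 was the highest of all 8 libraries and the other KO libraries were the lowest 3. The log2 difference was -0.58 ± 0.39 (95% interval -1.43 to 0.26, limma adjusted p = 0.3614).

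Slc4a1 (chr11:102348824-102366203, minus strand), the band 3 anion exchanger of the red cell membrane, had the lowest adjusted p of the 9. It was 1016.1, 2003.9, 311.6 and 468.3 in KO acute libraries, against 1305.8, 1867.0, 1926.0 and 3081.7 in WT acute libraries. Again KO replicates 1, 3 and 4 were below all WT libraries, and KO replicate 2 was above all but 1 of them. The log2 difference was -1.40 ± 0.44 (95% interval -2.34 to -0.46), and the limma adjusted p of 0.05154 lay just above the threshold. It fell below the threshold with a pseudocount of 5 (adjusted p = 0.046), with no filter on low values (adjusted p = 0.0424) and with a minimum mean of 50 (adjusted p = 0.0464), within a range of 0.000869 to 0.21 over 18 alternatives.

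The 3 regulators were low in every acute library. Gata1, the factor needed for erythroid maturation, was 46.4, 88.0, 38.7 and 51.7 in KO acute libraries, against 58.0, 99.0, 57.6 and 142.1 in WT acute libraries. KO replicates 1, 3 and 4 were below the WT libraries and replicate 2 among them, at a log2 difference of -0.62 ± 0.37 (limma adjusted p = 0.2888). Klf1, the activator of adult beta globin, was 27.4, 73.6, 21.1 and 16.2 in KO acute libraries, against 38.1, 32.9, 38.7 and 92.9 in WT acute libraries. KO replicates 1, 3 and 4 were again below every WT library and replicate 2 was among them, at a log2 difference of -0.65 ± 0.50 (adjusted p = 0.4184). Epor was 25.1, 65.1, 10.3 and 15.6 in KO acute libraries, against 10.5, 56.9, 34.9 and 43.3 in WT acute libraries. WT replicate 1 was nearly as low as the lowest KO library and KO replicate 2 was the highest of all 8, and the log2 difference was -0.43 ± 0.62 (adjusted p = 0.6957).

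The number of genes called depended most on 1 KO library. Across the 9 genes, KO acute replicate 3 lay below the WT range for 9, replicate 4 for 7, replicate 1 for 5 and replicate 2 for 0, and replicate 2 lay above the WT range for 3 (Hba-a2, Alas2 and Epor). The same counts per library were not made over all genes. Without KO acute replicate 2, limma called 4 of the 9 lower (Slc4a1 at -1.88, Hbb-bs at -1.74, Hbb-bt at -1.38 and Alas2 at -1.07), and the median of the 9 was -1.09. Without KO acute replicates 1 and 2, the pair with the high mitochondrial share, it called 5, adding Hba-a2 at -2.18, with a median of -1.27. That fit has 2 KO libraries against 4. Replicate 2 was the highest KO library for each of the 9 genes, so leaving it out had to lower the KO means. The added calls are therefore not separate support for a difference. Leaving out any other single library called 0. Over all genes, no alternative called more than 1916, against 1794 in the fit reported above. The mitochondrial share moved with the globin share among the KO libraries, both being higher in replicates 1 and 2 than in replicates 3 and 4. Replicates 1 and 2 also had higher summed neutrophil markers (4392.4 and 5463.7, against 2652.6 and 1911.0). Their summed T-ALL and thymocyte markers were lower (83922.0 and 72282.8, against 99280.7 and 89857.1). The part of these differences in the result was not tested.

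**Figure D2:**
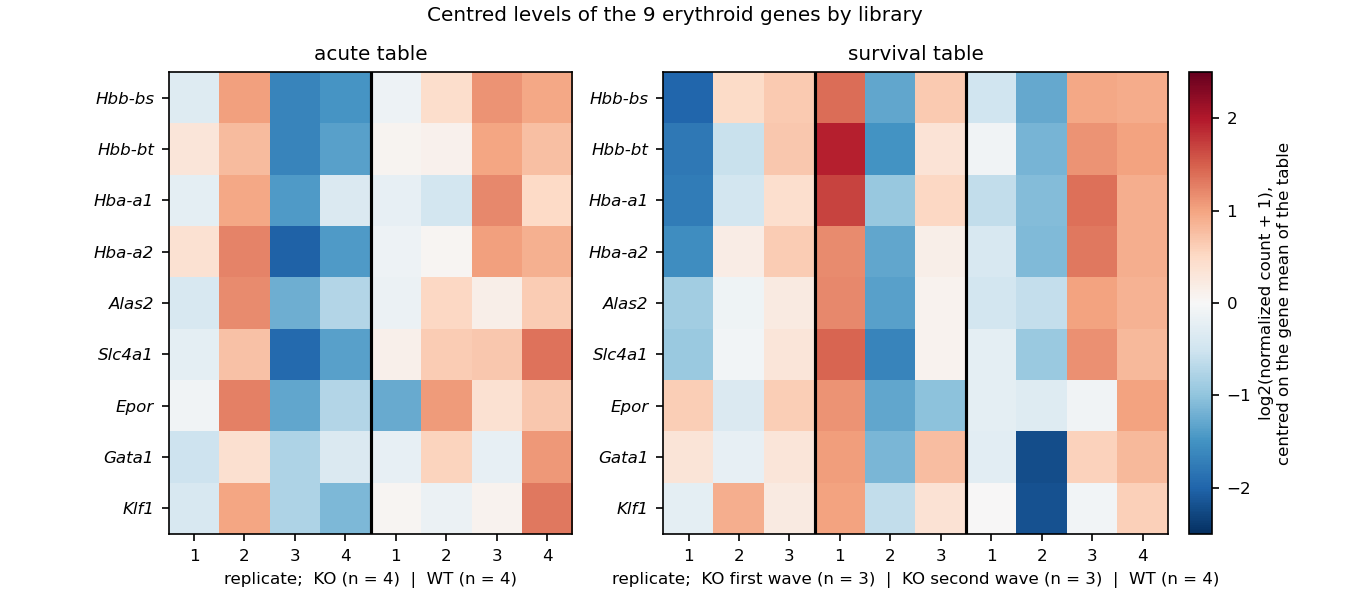
Level of each erythroid gene (rows) in each library (columns) as log2(normalized count + 1) minus the mean of that gene over the libraries of the same experiment; red is above and blue below that mean. Columns run by replicate within KO and WT for the acute table, and within KO first wave, KO second wave and WT for the survival table. Whole columns are mostly of one colour, as in KO acute replicate 3 (low), KO second wave replicate 1 (high) and KO second wave replicate 2 (low).

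The 9 genes varied together across libraries, and they varied more than most genes. The within-group SD on the log2 scale was 0.57 (Gata1) to 1.15 (Hba-a2) in the acute libraries, where the median over all genes tested was 0.37, and 0.87 (Epor) to 1.33 (Hbb-bt) in the survival libraries, where that median was 0.43. The Pearson correlation of each gene with the mean of the other 8 was 0.76 (Gata1) to 0.98 (Hbb-bs) over the 8 acute libraries. Over the 10 survival libraries it was 0.92 to 0.97 for the globins, Alas2 and Slc4a1, and lower for the regulators, at 0.77 for Gata1, 0.69 for Klf1 and 0.51 for Epor. These correlations are descriptions: the points share library and normalization, and the acute values include the difference between KO and WT.

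In the acute libraries the ratios between the genes moved less than their levels. Slc4a1 over Alas2 was 5.45, 3.59, 2.96 and 3.19 in KO acute libraries, against 5.87, 5.35, 7.08 and 8.03 in WT acute libraries. KO replicates 2, 3 and 4 were below all WT libraries and replicate 1 was among them, and the ratio was not tested. Slc4a1 over the sum of Gata1, Klf1 and Epor was 10.27, 8.84, 4.45 and 5.61 in KO acute libraries, against 12.25, 9.89, 14.67 and 11.07 in WT acute libraries, so KO replicates 2, 3 and 4 were again below all WT libraries and replicate 1 among them, and this ratio was not tested either. The beta to alpha globin ratio was 2.42 to 4.24 in KO acute libraries and 3.57 to 4.59 in WT acute libraries, with overlapping groups. Hbb-bt made up 11.7% to 19.3% of beta globin counts in KO acute libraries and 11.0% to 15.1% in WT acute libraries.

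At the humane endpoint, the erythroid genes of first-wave KO spleens did not separate from WT survival spleens. Of the 9 genes, 6 were lower and 3 (Epor, Gata1 and Klf1) higher in the fit, with a median log2 difference of -0.43 against 0.01 over all genes. limma called 0 of the 9, with adjusted p from 0.754 to 0.934 and 0 at an unadjusted p under 0.05, and it called 0% of the 14286 genes tested, 1146 of which had an unadjusted p under 0.05. In second-wave KO spleens 4 were lower and 5 higher than in WT survival spleens, with a median of 0.05 against -0.01, and 0 of the 9 were called (adjusted p 0.682 to 0.987, 0 at an unadjusted p under 0.05; 0.224% of all genes called). With both waves averaged, 7 were lower and 2 (Gata1 and Klf1) higher than WT, with a median of -0.24 and 0 called (adjusted p 0.593 to 0.983, 0 at an unadjusted p under 0.05; 0.021% of all genes called). Second against first wave gave 7 higher and 2 lower, with a median of 0.23 and 0 called (adjusted p 0.916 to 0.999, 0 at an unadjusted p under 0.05; 0.119% of all genes called). The comparisons with WT share the same 4 WT libraries, and whether the acute difference is larger than the endpoint difference was not tested, the experiments having been normalized separately.

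**Figure D3:**
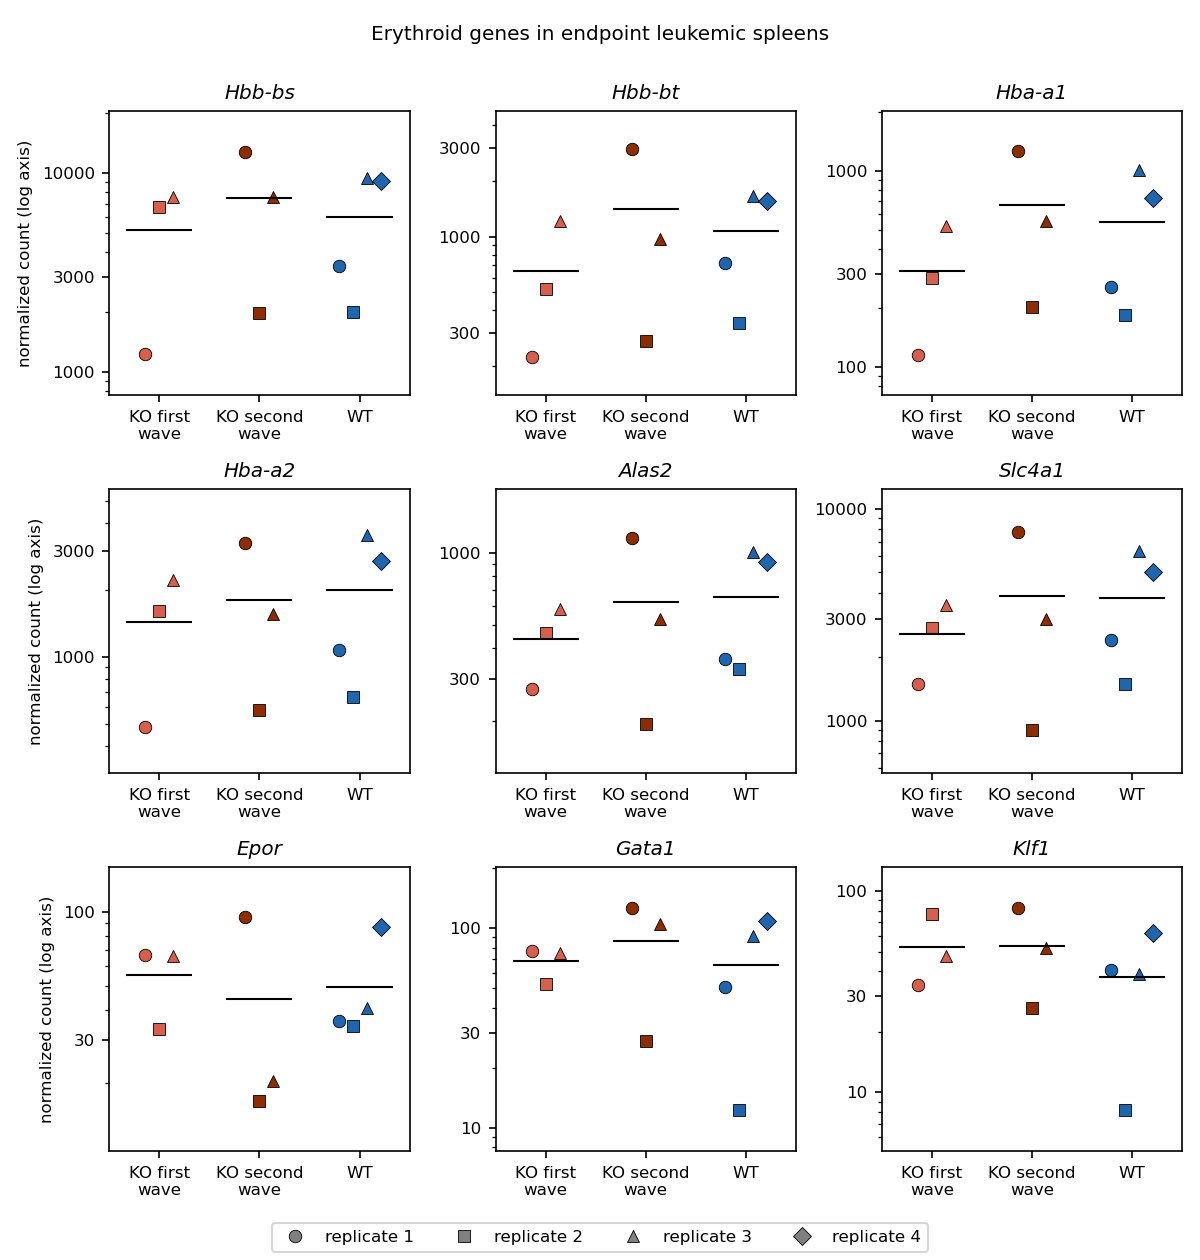
Normalized counts of the 9 erythroid genes in endpoint spleens (log axes), KO first wave, KO second wave and WT from left to right, 1 point per library with its replicate number as the shape; the horizontal line is the group mean. Each group holds a low and a high library for the globins, Alas2 and Slc4a1, so the spread within groups is as wide as any distance between them.

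The width of the endpoint groups shows in Hbb-bs. It was 1227.4, 6736.8 and 7628.3 in first-wave KO libraries and 12805.0, 1982.3 and 7605.1 in second-wave KO libraries, against 3429.5, 2005.9, 9467.4 and 9186.7 in WT survival libraries. The lowest and the highest library were both KO, and each group held a library under 2006 beside ones several times higher. The log2 difference was -0.31 ± 0.71 in the first wave (95% interval -1.83 to 1.20, limma adjusted p = 0.9127) and 0.22 ± 0.71 in the second wave (95% interval -1.29 to 1.74, adjusted p = 0.9193). Differences of more than 2-fold in either direction lie inside those intervals. Among WT survival libraries, replicates 1 and 2 were the low ones for Hbb-bs. They also had higher summed neutrophil markers (2133.6 and 1310.7, against 410.9 and 589.9 in replicates 3 and 4). Their summed T-ALL and thymocyte markers were lower (90326.8 and 97893.4, against 141271.7 and 130609.1). The part of these differences in the result was not tested.

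Slc4a1 was 1486.9, 2722.0 and 3494.2 in first-wave KO libraries and 7731.2, 905.4 and 3020.5 in second-wave KO libraries, against 2404.4, 1496.5, 6288.0 and 5007.2 in WT survival libraries. Second-wave replicates 1 and 2 were the highest and lowest of all 10. Its log2 difference was -0.43 ± 0.60 in the first wave (adjusted p = 0.8449) and -0.24 ± 0.60 in the second wave (limma adjusted p = 0.8974). Alas2 was 271.7, 464.0 and 581.1 in first-wave KO libraries and 1149.3, 194.3 and 530.3 in second-wave KO libraries, against 361.8, 328.0, 1004.5 and 916.0 in WT survival libraries, with the same libraries at the ends.

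The regulators followed the globins less closely at the endpoint. Klf1 was 34.3, 76.8 and 47.4 in first-wave KO libraries and 82.4, 26.2 and 52.2 in second-wave KO libraries, against 40.7, 8.2, 38.6 and 61.7 in WT survival libraries. Gata1 was 77.1, 52.6 and 75.3 in first-wave KO libraries and 126.7, 27.2 and 105.4 in second-wave KO libraries, against 51.1, 12.3, 91.2 and 108.7 in WT survival libraries. For both factors the lowest library was WT survival replicate 2, which also was among the low libraries for Hbb-bs. Epor was 66.5, 33.3 and 66.0 in first-wave KO libraries and 95.1, 17.0 and 20.5 in second-wave KO libraries, against 36.0, 34.3, 40.4 and 86.9 in WT survival libraries. First-wave replicate 1, the lowest library for Hbb-bs, was thus among the higher ones for Epor. The fitted differences of Klf1 were 0.71 ± 0.63 (first wave) and 0.66 ± 0.63 (second wave), with limma adjusted p of 0.7537 and 0.6822.

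Single libraries tended to lie on one side for most genes. Second-wave replicate 1 lay above the WT survival range for 8 of the 9 genes and second-wave replicate 2 below it for 6, while first-wave replicate 1 lay below it for 6 and first-wave replicate 3 within it for all 9. The same counts over all genes were not made. Second-wave replicate 1 also exceeded the WT survival range in summed macrophage (2635.0, against 626.2 to 1425.4) and megakaryocyte and platelet markers (993.6, against 293.0 to 540.1), so its high side was not particular to erythroid genes. The globin share of the library was 0.020%, 0.093% and 0.115% in first-wave KO libraries and 0.200%, 0.031% and 0.110% in second-wave KO libraries, against 0.053%, 0.032%, 0.158% and 0.154% in WT survival libraries. The mitochondrially encoded share did not follow it there, being 2.87% to 3.36% in every survival library but WT replicate 4, at 2.09%.

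**Figure D4:**
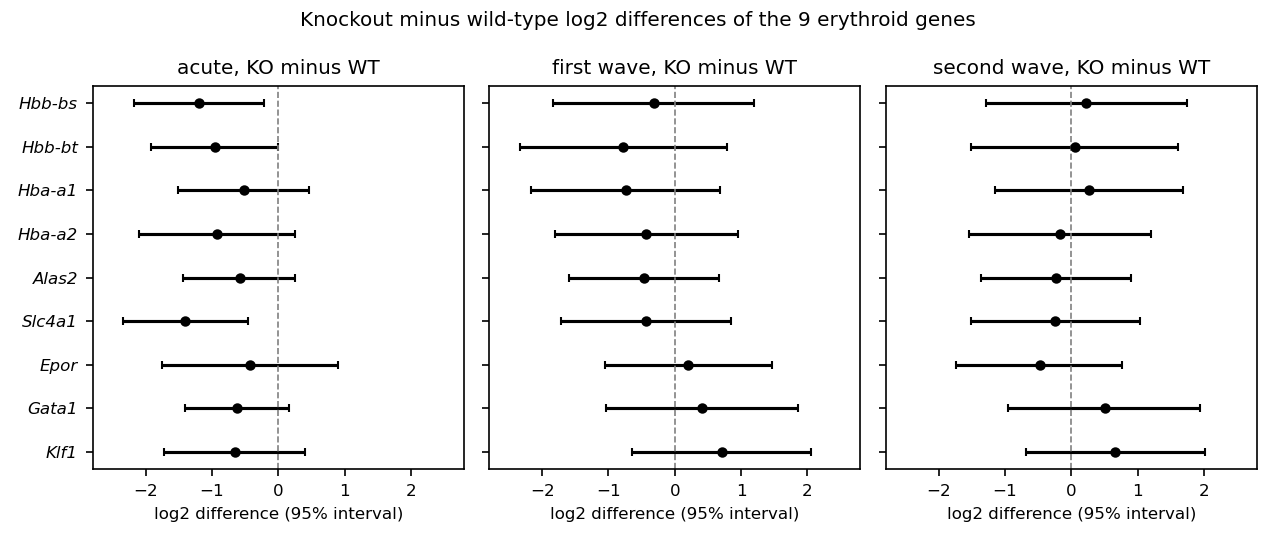
Log2 differences of the 9 erythroid genes, KO minus WT, with 95% intervals from limma (points and bars), for the acute libraries, the first wave and the second wave. All 9 acute points lie below 0, with the intervals of Slc4a1 and Hbb-bs wholly below it, and every first-wave and second-wave interval crosses 0.

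Among the genes whose pattern was most like the mean profile of the 9, by the smaller of the Pearson r over 8 acute and over 10 survival libraries, were Btnl10 (0.97), Fbxo30 (0.97), Gda (0.96), Abcb10 (0.96), Tmcc2 (0.95) and Car2 (0.94). Abcb10 encodes a mitochondrial transporter used in heme synthesis and Car2 a carbonic anhydrase of red cells. Among 12282 genes compared the median of this measure was -0.22, and 24 exceeded 0.9. None of these 6 genes was called in any of the 5 comparisons, their acute log2 differences being -1.15 (Tmcc2) to -0.59 (Btnl10 and Gda) with limma adjusted p from 0.0943 to 0.217.

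Some other erythroid genes passed the test in acute KO spleens. Of 102 further genes in lists of heme synthesis, membrane, transcription factor, erythropoietin signalling, iron uptake, late maturation and embryonic globin genes, 93 were tested, and 19 fell and 0 rose (limma, adjusted over all genes), which is 20.4% lower against 8.07% of all genes. The median log2 difference was -0.46 and 75 of 93 were negative. Groups did not overlap, with KO lower, for 21 (22.6%), against 11% of all genes. The lists were chosen with earlier results of these data known, so these shares are descriptions and not separate support for an erythroid difference. The count was 31 without KO acute replicate 2 and also without KO acute replicates 1 and 2, 9 without WT acute replicate 4, 12 with quantile normalization and 5 with eBayes without trend. Over all genes, eBayes without trend called 693 of 14184, and quantile normalization called 746 higher and 832 lower. Leaving out libraries never called more than 1916 genes in all. Rows for the 5 embryonic globins were not found in either table. In the other 4 comparisons 0 of the 93 were called.

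**Figure D5:**
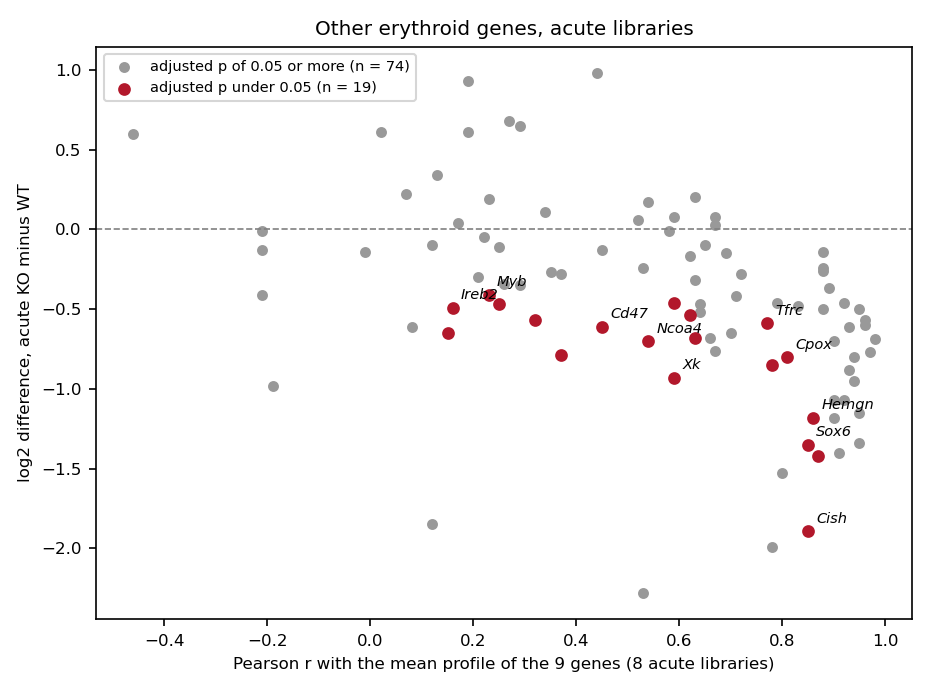
Acute log2 difference, KO minus WT (vertical axis), of the 93 other erythroid genes tested, against their Pearson r with the mean profile of the 9 genes over the 8 acute libraries (horizontal axis); red points have a limma adjusted p under 0.05 and grey points do not. The 19 red points all lie below 0 and spread from low to high r.

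Of 18 erythrocyte membrane and skeleton genes tested, 4 fell in acute KO spleens, where 8.07% of all genes were called lower. The median over the list was -0.78. Xk, a membrane protein that carries a blood group antigen, was 120.7, 197.0, 149.3 and 172.2 in KO acute libraries, against 286.3, 299.5, 236.7 and 402.7 in WT acute libraries. The highest KO value was under the lowest WT value, as for 11% of all genes, and the log2 difference was -0.93 ± 0.22 (limma adjusted p = 0.0134). Cd47 (-0.61, adjusted p = 0.00376) and Gypc (-0.79, adjusted p = 0.0161) were also among those that fell, and Cd47 is made by most cell types. Xk and Gypc were not called without WT acute replicate 4, and Gypc also not without KO acute replicates 1 and 2 together (limma adjusted p = 0.0862).

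Among 22 late maturation genes tested, 5 fell, where 8.07% of all genes were called lower. The list median was -0.59. Hemgn, a nuclear protein of blood precursors, was 150.1, 254.6, 103.4 and 129.9 in KO acute libraries, against 293.6, 354.6, 323.4 and 408.9 in WT acute libraries. Again the KO values were all lower, as for 11% of all genes (log2 difference -1.18 ± 0.25, limma adjusted p = 0.00845). Isca1 (-0.68), Bnip3l (-0.57) and Prdx2 (-0.47), also in this list, have roles in iron-sulfur cluster assembly, mitochondrial removal and peroxide reduction in many cell types, and Prdx2 was called in 7 of 18 alternatives.

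Of 15 erythroid transcription factors and cofactors tested, 3 fell. Sox6, a factor that acts in definitive red cell maturation, was 133.9, 236.1, 61.4 and 145.4 in KO acute libraries, against 292.5, 306.4, 335.3 and 409.6 in WT acute libraries. All KO values were lower, as for 11% of all genes (log2 difference -1.35 ± 0.32, limma adjusted p = 0.0141). Myb (-0.41) and Cbfa2t3 (-0.54) also fell, Myb being a factor of immature T cells as well, and each was called in 9 of 18 alternatives. Sox6 and Cish were not called without WT acute replicate 4. Of 13 erythropoietin signalling genes, 2 fell, where 8.07% of all genes were called lower: Cish, a feedback inhibitor induced by Stat5, at -1.89 ± 0.44 (limma adjusted p = 0.0133), and Stat5a at -0.46 (adjusted p = 0.0461). Cish was low, averaging 23.78 in KO acute and 86.78 in WT acute libraries. Its r with the mean profile of the 9 was 0.85 over the acute and 0.44 over the survival libraries. Stat5a was called in 5 of 18 alternatives. Of 12 heme synthesis genes, 1 fell, a share near the 8.07% of all genes called lower. It was Cpox, at -0.80 (adjusted p = 0.039), and it was called in 9 of 18 alternatives. Of 13 iron uptake genes, 4 fell: Ncoa4 at -0.70, Ireb2 at -0.49, the transferrin receptor Tfrc at -0.59 and Pcbp1 at -0.65, all of which dividing cells of other types also use. Pcbp1 was called in 14 of 18 alternatives, and not without WT acute replicate 3, without WT acute replicate 4 or without KO acute replicates 1 and 2 together (limma adjusted p = 0.137 for the last).

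In both experiments 22 of the 93 had an r of at least 0.8 with the mean profile, against 0.432% of all genes compared, and 4 of these 22 fell (Cpox, Sox6 and Hemgn among them), and the other 15 genes that fell had a lower r in at least 1 experiment. Whether the genes of high r fell more or less often than the rest was not tested. The r over the acute libraries and the acute difference rest on the same libraries, so the 2 axes are not independent.

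Markers of other cells in the same acute libraries were called in both directions, against 4.58% of all genes called higher and 8.07% called lower. Of 23 T-ALL and thymocyte markers, 6 fell and 1 rose (Cd4), with a summed level of 72282.8 to 99280.7 in KO acute libraries and 103313.7 to 120349.2 in WT acute libraries. Of 17 neutrophil markers tested, Ltf (2.10) and Ngp (1.29, both log2) rose, and all 17 had a positive fitted difference with a median of 0.79. Ngp was called in 12 of 18 alternatives. It was not called without KO acute replicate 1, WT acute replicate 1 or WT acute replicate 3, nor without KO acute replicates 1 and 2 together (limma adjusted p = 0.182). The sum over 19 was 1911.0 to 5463.7 in KO acute libraries and 1082.9 to 2094.9 in WT acute libraries. For 10 B cell, 9 megakaryocyte, 9 macrophage, 3 mast cell and 2 eosinophil markers tested, 0 were called. All 10 B cell markers nevertheless had a positive fitted difference, with a median of 0.75 and a lowest limma adjusted p of 0.0525. The macrophage sum, covering the cells that tend erythroid precursors, was 535.8 to 776.8 in KO acute libraries and 546.8 to 810.6 in WT acute libraries. Of the defining markers in the acute libraries, Gp9 (platelets) was at 0 in every WT library. The megakaryocyte and platelet sum was nevertheless 325.2 to 509.9 in WT acute and 309.0 to 476.0 in KO acute libraries, so Gp9 does not stand for its list. At the endpoint the 1 marker called was Pax5 (B cells), lower in the second wave than in WT (-4.81, limma adjusted p = 0.0239). It was called in 13 of 20 alternatives, with adjusted p from 0.0111 to 0.255. The call was lost without second-wave KO replicate 1 (adjusted p = 0.0736) and without WT survival replicate 1 (0.0893), 2 (0.116) or 4 (0.0845). The part of these cell types in the erythroid values was not tested.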

How the data were processed

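RNA-seq of leukemic spleens was available as 2 tables of gene-level values for 18 libraries, 8 acute and 10 survival. Per the submitters' processing notes, kallisto 0.44.0, DESeq and build GRCm38 were used. The deposited values are a signal per gene, estimated counts divided by size factors by the authors. Whole reads could not be recovered: 33.7% to 63.4% of values under 8 reads came out whole within 0.02, so no count model was used. Depth was about 6.1 to 12.7 M estimated reads per library, from the step between low values. No column of per-sample values was left unmapped.

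Within each table, genes with a mean of at least 10 were fitted as log2(value + 1) by group with limma 3.58.1 (R 4.3.3; lmFit, then eBayes with trend), and p-values were adjusted by Benjamini-Hochberg over all genes tested, at 0.05. The scale understates changes of low genes. The survival fit used all 3 groups, which share 1 estimate of spread. The procedure was tested on simulated data. Alternatives were other pseudocounts, filters, scalings and variance settings, a replicate block, and leaving out libraries.

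The 9 genes and all lists were chosen with earlier results of these data known. Named are the 9, the 8 genes most like their mean profile (predicted genes, pseudogenes and receptor segments left out), and from each list up to 4 genes past the threshold with the smallest adjusted p, apart from a few genes not reported here. Transcript lengths, 31-base words and gene positions came from GENCODE M21 (GRCm38), and windows from RefSeq.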

Additional observations from a re-analysis of the deposited data

Results flagged for a closer look

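A single library stood far from the rest of its group for 2 of 27 groups of 4 libraries examined over the 9 genes; chance alone gives about 1 in 20. Klf1 in WT acute replicate 4 was 92.9, while WT acute replicates 1 to 3 were 38.1, 32.9 and 38.7. Epor in WT survival replicate 4 was 86.9, while WT survival replicates 1 to 3 were 36.0, 34.3 and 40.4.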

How the results depend on the processing

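For the acute comparison, the 9 genes called numbered 1 (Slc4a1) with a pseudocount of 5, with no filter and with a minimum mean of 50, 5 without KO acute replicates 1 and 2 together, and 0 to 4 when leaving out 1 library at a time, the 4 without KO acute replicate 2; all other alternatives run gave 0. All 9 acute differences kept their sign in every alternative that tested them, 17 for Epor and Klf1, whose means were under 50, and 18 for the others, their median running from -1.27 to -0.46. For the survival comparisons 0 of the 9 were called in any alternative, while the median changed sign in 1 of 21 (first wave), 4 of 21 (second wave), 2 of 20 (second against first wave) and 5 of 20 (both waves) alternatives, running from -0.80 to 0.92 in the second wave.

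The 19 other erythroid genes called in the acute comparison became 12 with quantile normalization, 5 with eBayes without trend, 31 without KO acute replicates 1 and 2 together, and 9 (without WT acute replicate 4) to 31 (without KO acute replicate 2) when leaving out 1 library. Ncoa4 was called in all 18 alternatives. With eBayes without trend, Xk, Hemgn and Sox6 lost the call (limma adjusted p = 0.0515, 0.0511 and 0.0735). Other named genes lost it in that setting too, among them Cd47 (0.0521), Ireb2 (0.0791), Tfrc (0.0861), Stat5a (0.0875), Prdx2 (0.109), Cpox (0.136) and the neutrophil marker Ltf (0.064). Without WT acute replicate 4, Xk (adjusted p = 0.0561) and Sox6 also lost the call. Over all genes, acute calls numbered 693 (eBayes without trend) to 1916 against 1794. Equal totals shifted the acute median of all genes to 0.16, with 1123 higher and 735 lower calls, and quantile normalization gave 746 higher and 832 lower, against 650 higher and 1144 lower; the cause of these shifts was not tested.

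Replicate numbers did not pair the libraries: same-numbered libraries correlated at -0.03 to 0.09. With the replicate block 0 of the 9 genes were called in each comparison, and of the other genes named Stat5a and Prdx2 (acute) and Pax5 (second wave) were not called (adjusted p = 0.0788, 0.0577 and 0.0674). The fit of only the groups compared is the same fit for both waves against WT and was not repeated. Groups of 3 or 4 libraries and within-group SDs near 1 on the log2 scale limit what could be detected.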
